A study of Drosophila melanogaster with 2 samples.

Results

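The genes described here are ush and 8 genes of the blood cells or the dorsal ectoderm of the fly embryo. They are the GATA factor genes srp and pnr, the lineage factor genes gcm and lz, and the plasmatocyte genes crq, NimC1, Pxn and Hml. Together with ush they make 9 of the 13968 protein-coding genes annotated on 7 chromosome arms (Ensembl release 115). The genes were chosen with the signals and peak calls of these same lists in view, so their own counts and values are a description and carry no test. For each gene every peak summit was taken that lay within 1000 bp of an annotated transcription start site (TSS), or in the gene body extended by 1000 bp on each side.

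U-shaped (Ush) is a multi-zinc-finger protein of the Friend of GATA family. It does not act as a classical DNA-binding activator but binds GATA factors: in the dorsal ectoderm it antagonises Pannier, the product of pnr, and in hemocytes, the blood cells of the fly, it works with Serpent, the product of srp, and limits the crystal cell fate that the Runx factor Lozenge (lz) promotes. Embryonic hemocytes arise from the head mesoderm, where srp is required for all of them and gcm directs most of them to become plasmatocytes, the phagocytes of the embryo.

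The binding profiled was that of Cropped (crp), the fly counterpart of AP-4 of vertebrates, whose basic helix-loop-helix domain recognises the E-box CAGCTG. A line with a transgene for crp fused at its C terminus to GFP supplied embryos of mixed sex, 0 to 16 hours old, and chromatin sonicated to 200 to 800 bp was precipitated with an antibody to GFP and sequenced. The single group holds biological replicates 1 and 3, all carrying the crp-GFP transgene, and no embryos of another genotype or treatment were compared. What drives the transgene, and whether untagged Cropped is also present, is not given in the sources used here. Whole embryos were used, so a strong signal in few cells and a weak signal in many cells cannot be told apart, and the lists hold no expression values against which the presence of hemocytes could be checked.

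Peaks were listed at 3 levels: 30000 candidates in each replicate, 26505 candidates from the replicates pooled, and 1122 peaks that passed the authors' irreproducible discovery rate (IDR) procedure, a filter that compares the ranks of peaks between replicates. Each carries the authors' signal value, a measure of enrichment from the peak caller on a scale that is not stated. In the pooled list it ran from 18.4 upwards with a median of 23.2 outside the IDR set, and the IDR peaks ran from 61.3 through a median of 110.1 to 770.4. The lowest IDR peak stood just above the highest candidate left out, at 61.1, so the set holds the pooled candidates of highest signal, and 1115 of its peaks had a candidate in both replicates. Read counts are not part of the lists, so the depth behind each value is unknown.

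Cropped peaks of the IDR set were found at 2 of the 9 genes. A total of 5 summits fell in the extended body of ush and 1 at the start of crq, which lies 23196 bp before ush on chromosome arm 2L. The other 7 genes had none near a TSS or in the body. Among all protein-coding genes, 11.1% had such a summit within 1000 bp of a TSS and 13.6% had one in the extended body, against 2 of 9 here on either count, and a list of 9 genes chosen on these calls says nothing about GATA or hemocyte genes at large.

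Sequences near the 6 IDR summits are shown because each holds the E-box of Cropped and because the distance of that E-box from the summit differs among them. Distances in the line labels are those of the summit, not of the stretch printed. Only the stretches upstream of cbt include their summit. All are dm6, plus strand of chromosome arm 2L, 5′ to 3′, with CAGCTG in capitals. The stretches upstream of cbt are chr2L:480091-480255 and chr2L:480889-481107, each from 50 bp beyond the summit to 12 bp beyond the E-box. The 3 stretches in exons, each the E-box with 12 bases on both sides, are chr2L:490337-490366, chr2L:523588-523617 and chr2L:540741-540770. The last is the whole gap between the starts of crq and shv, chr2L:453025-453107.
ush intron, 453 bp upstream of cbt: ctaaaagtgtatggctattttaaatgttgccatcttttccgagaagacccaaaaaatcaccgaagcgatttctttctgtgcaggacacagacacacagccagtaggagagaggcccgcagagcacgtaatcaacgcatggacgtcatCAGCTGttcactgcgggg
ush intron, 1369 bp upstream of cbt: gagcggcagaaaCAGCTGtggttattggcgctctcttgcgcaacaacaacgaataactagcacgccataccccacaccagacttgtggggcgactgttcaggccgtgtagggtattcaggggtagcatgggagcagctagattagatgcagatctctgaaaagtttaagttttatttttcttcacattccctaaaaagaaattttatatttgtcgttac
ush, 565 bp upstream of ush-RB: aaagcctattgcCAGCTGctgtagtcaaaa
ush, 5 bp upstream of ush-RC: atcaacaaacatCAGCTGtgctgcgtcgtc
past ush, in the lwr 3′ UTR: catcagatagatCAGCTGatcgttggtagc
gap between crq and shv: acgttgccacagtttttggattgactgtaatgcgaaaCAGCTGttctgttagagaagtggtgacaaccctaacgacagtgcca

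The gene ush (FBgn0003963, chr2L:476220-540560, plus strand) is 64341 bp long, has 5 annotated transcripts and starts at 4 sites, at positions 476220, 490835, 523466 and 523736. Its 5 IDR summits were spread over the whole gene, with 916, 9213, 33461 and 16967 bp between neighbours. Only the summits at 490270 and 523731 lay within 1000 bp of a start of ush itself. Neither belongs to its outermost start, and with the outermost start of each gene alone 1 of the 9 genes, crq, had an IDR summit near a TSS. Of the 5 summits, 3 were among the 561 IDR peaks of higher signal.

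The first summit, at position 480141 (peak chr2L:479939-480342), lay in an intron of ush, 3921 bp downstream of the first ush TSS. It was also 453 bp upstream of the start of cbt, a gene of 3243 bp nested in the same intron on the minus strand, which encodes the zinc finger factor Cabut, known for its part in dorsal closure. Its signal was 89.5 in the pooled list, 41.2 in replicate 1 and 48.7 in replicate 3. These values placed it in the lower part of the set, above 32.4% of the IDR peaks. The summit of replicate 1 lay 100 bp away, the only shift of more than 35 bp among the 6 summits.

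The second, at 481057 (peak chr2L:480855-481258), was in the same intron, 1369 bp upstream of cbt and 4837 bp downstream of the first ush TSS. Its signal was 160.6 pooled, 76.7 in replicate 1 and 83.1 in replicate 3, the strongest of the 5 in the pooled list and in replicate 3. For both of these summits the nearest start of a protein-coding gene was that of cbt, and the lists cannot assign them to either gene.

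The third summit, at 490270 (peak chr2L:490068-490471), lay in a 5′ UTR exon of ush, 565 bp upstream of the start of the transcript ush-RB, a position shared with the start of the long noncoding RNA gene lncRNA:CR46258. Its signal was 127.5 pooled, 69.6 in replicate 1 and 53.4 in replicate 3. It exceeded 59.8% of the IDR peaks and was the stronger of the 2 summits near ush starts in every list.

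The fourth, at 523731 (peak chr2L:523529-523932), was 5 bp upstream of the start of ush-RC and 265 bp downstream of that of ush-RA, in the 5′ UTR of the latter. Its signal was 73.2 pooled, 23.7 in replicate 1 and 50.2 in replicate 3. The replicates differed here: it ranked 629 among the candidates of replicate 3 and 1765 in replicate 1, below the 1122 strongest of that library. The bases within 50 bp of this summit were 60.4% G and C, against 33.7% to 46.5% at the other 5 summits.

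The fifth, at 540698 (peak chr2L:540496-540899), lay 138 bp past the 3′ end of ush, in the 3′ UTR of lwr, which encodes the SUMO-conjugating enzyme Ubc9 and runs towards ush from the other side with 38 bp between the 3′ ends. It was 1882 bp downstream of the lwr TSS and 99 bp inside lwr from its 3′ end. Its signal was 157.0 pooled, 104.6 in replicate 1 and 47.2 in replicate 3, and its rank was 179 in replicate 1 and 693 in replicate 3. Replicate 1 was the higher here by more than at any other of the 6 summits. Of the 1122 IDR summits 15 lay in a 3′ UTR, and 4 of these, among them this one, were more than 1000 bp from any protein-coding TSS.

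**Figure D1:**
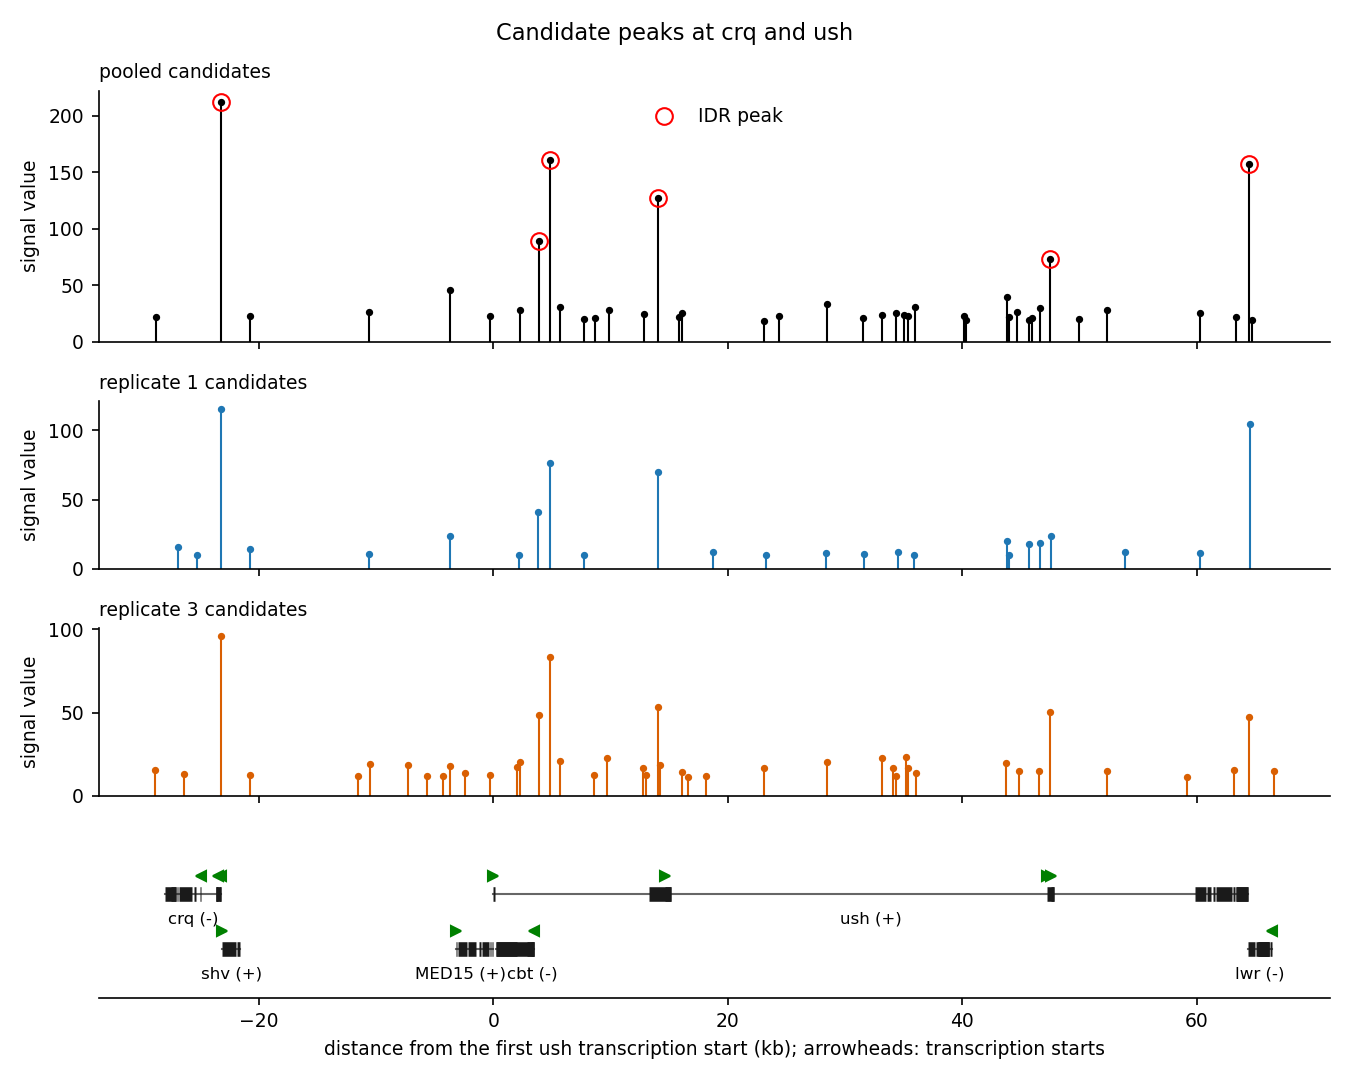
Signal of every candidate peak (vertical axes, the authors' signal value) in the pooled list and in replicates 1 and 3, by distance from the first ush start in kb, over gene models of crq, shv, MED15, ush, cbt and lwr with exons as boxes. Red rings mark the 6 IDR peaks, whose pooled signals of 73.2 to 211.9 stand above every other pooled candidate drawn, and no ring lies at the first ush start.

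The first start of ush, used by ush-RD and ush-RE, had no IDR summit. Its only pooled candidate lay 275 bp upstream, at 475945 in the 3′ UTR of the neighbour MED15, with a signal of 22.9, near the median of candidates outside the IDR set. Replicate 3 had a candidate of 12.7 there and replicate 1 had none.

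Of the 1122 IDR summits, 69 were more than 1000 bp from any protein-coding TSS, and the ush summits at 481057 and 540698 ranked 4 and 5 by signal among those 69. From the crq summit to the last ush summit there were 6 IDR summits in 87.7 kb, beside a mean of 0.816 per 100 kb over the arms. This stretch begins and ends at IDR summits of genes chosen for them, so its density is a description and no comparison with the mean. The nearest IDR summits outside were 48.8 kb before this stretch and 27.5 kb after it.

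All 5 ush summits and that of crq lay in candidate peaks of both replicates, which 99.4% of the IDR peaks did. The log2 ratio of replicate 3 over replicate 1 had a median of -0.17 and an SD of 0.57 over the 1115 IDR peaks found in both. It was 0.24 and 0.12 at the summits upstream of cbt, -0.38 upstream of ush-RB and -0.27 at crq, all within 1 SD of the median. At the other 2 ush summits it was not: the ratio was 1.09 at the start of ush-RC, above 97.8% of the IDR peaks, and -1.15 in the lwr 3′ UTR, above only 3.23% of them. The order of the 5 ush summits by signal therefore differed between the replicates. The last summit was the strongest in replicate 1 and the weakest in replicate 3.

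**Figure D2:**
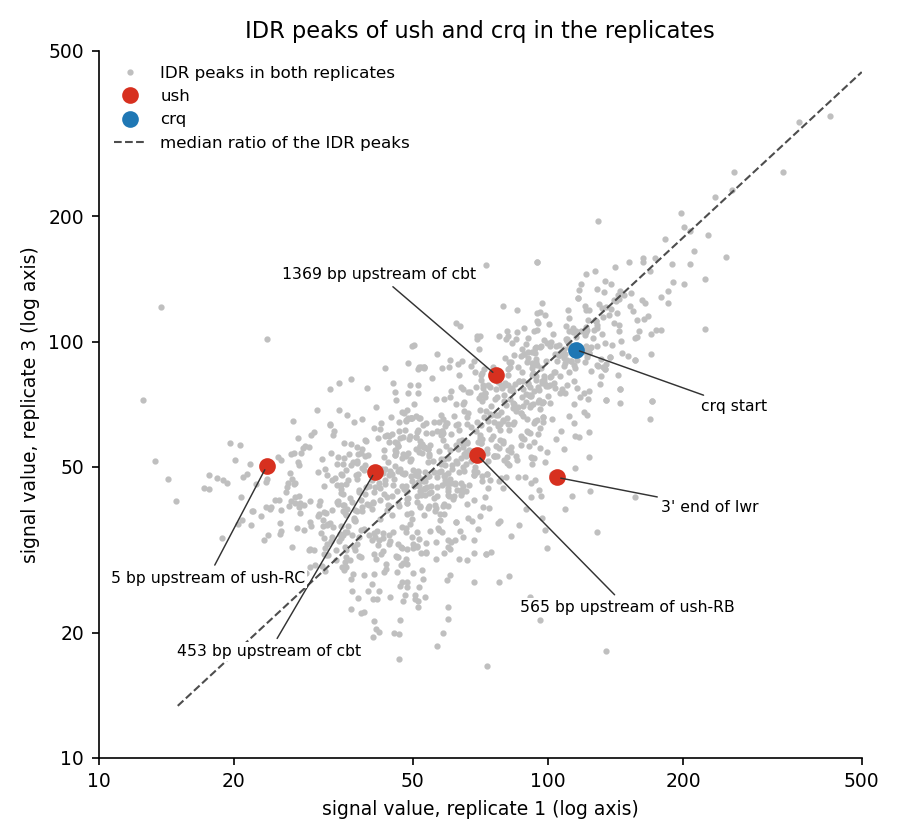
Signal value in replicate 3 against replicate 1, both on log axes, for the 1115 IDR peaks with a candidate in both replicates (grey), with the 5 ush peaks in red and the crq peak in blue; the dashed line is the median ratio. The summits 5 bp upstream of ush-RC (23.7 and 50.2) and at the 3′ end of lwr (104.6 and 47.2) sit at opposite edges of the cloud.

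Outside the IDR set ush had 31 further pooled candidates, 36 in all, with signals from 18.6 to 39.3 and a median of 22.9. Of the 31, 8 had a candidate in both replicates, as did 28.7% of all pooled candidates outside the IDR set, a share of similar size. A further 5 were only in replicate 1, 11 only in replicate 3 and 7 in neither. The strongest, at 519998 in an intron, had 39.3 pooled, 20.2 in replicate 1 and 19.5 in replicate 3. A gap separated it from the weakest IDR summit of the gene, at 73.2. The candidate at 540898, with 19.0, is among the 8 but overlapped the same replicate peaks as the summit at 540698, so it is not a separate observation in the replicates. Likewise the candidates at 511276 and 511561, both among the 11, fell in the same replicate 3 peak.

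Long genes hold more candidates, so ush was set beside the 572 genes within a factor of 2 of its length. Of these 13.1% had an IDR summit in the extended body, with a median of 0 summits. The gene ush, chosen with its summits known, was the only one with 5 or more. All other genes with 4 or more IDR summits, described below, are 18320 to 28165 bp long and fall outside this range of lengths. There were 11 genes, ush included, that had 36 or more pooled candidates, against a median of 10. Per kb of extended body ush had 0.543 candidates and the median was 0.187, and 6 of these genes, ush included, were at that density or above. Among the shorter genes with 4 or more IDR summits, crp (1.18), Su(Tpl) (0.852), Mi-2 (0.630) and neur (0.568) were denser than ush. Dhc64C (0.197) was not.

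**Figure D3:**
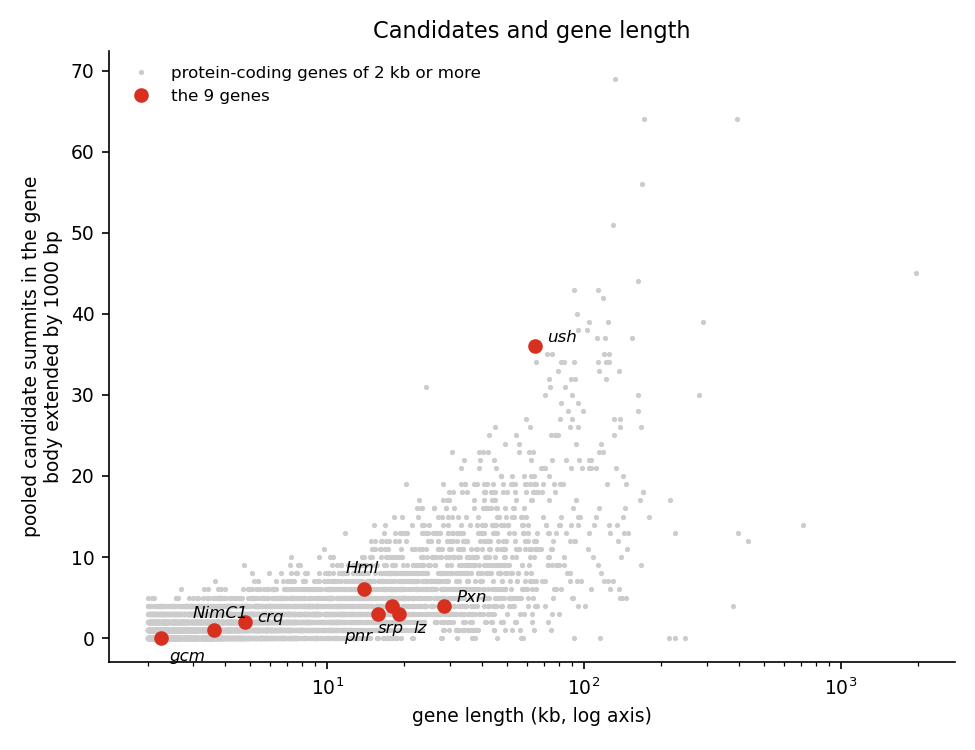
Pooled candidate summits per gene, 1000 bp on each side included, against gene length in kb (log axis) for protein-coding genes of 2 kb or more (grey points) and the 9 genes (red, named). The 36 candidates of ush stand high for its length, whereas the other 8 genes have 0 to 6 and lie inside the grey cloud.

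Across the genome 6 genes had 4 or more IDR summits in the extended body, the measure by which genes most like ush were sought. The gene crp itself had 8, of which 2 were near its own starts and 6 were far from any TSS. Mi-2, the ATPase of the NuRD chromatin remodelling complex, and the overlapping Su(Tpl), which encodes an ELL-type elongation factor, shared 4 summits, of which 3 were far from any TSS. Dhc64C, the dynein heavy chain gene, had 4 summits that were all near its own starts, though the nearest start was its own at only 2 of them. The gene neur, which encodes a ubiquitin ligase of Notch signalling, had 3 near its starts and 1 far away. By position the 5 summits of ush were mixed: 2 were near its own starts, 1 was near the start of another gene only and 2 were far from any.

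The gene crq (FBgn0015924, chr2L:448254-453024, minus strand) encodes Croquemort, a CD36-family receptor with which plasmatocytes take up apoptotic cells. Its IDR summit, at 453023 (peak chr2L:452962-453112), was 1 bp downstream of the outermost of its 3 start sites and 85 bp upstream of the start of shv, a DnaJ-family gene that runs the other way. Its signal was 211.9 pooled, 115.3 in replicate 1 and 95.7 in replicate 3. It exceeded 88.9% of the IDR peaks and ranked between 125 and 152 in all 3 lists, the highest of the 6 summits in each. Only 83 bp separate the starts of crq and shv, so the peak covers both and cannot be assigned to 1 of them. The remaining pooled candidate of crq, with 21.7, lay in the 3′ UTR of the neighbour ex, where replicate 3 had 15.7 and replicate 1 had no candidate.

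Measured from the IDR summits, the E-box stood close at crq and farther away at ush. A whole CAGCTG within 50 bp of the summit, searched on both strands (it is its own reverse complement), was present at crq and at 0 of the 5 ush summits. It was present at 48.2% of all IDR peaks and 4.59% of the pooled candidates outside the set. Within 250 bp all 6 summits had a copy, as did 85.7% of the IDR peaks and 19.3% of the other candidates. The midpoint of the nearest copy was 41.5 bp from the crq summit. At the ush summits it was 99.5 and 153.5 bp away upstream of cbt, 81.5 bp upstream of ush-RB, 128.5 bp at the start of ush-RC and 57.5 bp in the lwr 3′ UTR, and the sequences printed above span these distances upstream of cbt. The copy at the lwr site thus lay just outside the window of 50 bp. Within 100 bp 2 of the 5 ush summits had a whole copy, and the share of IDR peaks at that distance is not given here. In replicate 1 the summit at the lwr site lay 30 bp closer to this copy, and that of crq was not shifted. By the replicate 1 summits the lwr copy was therefore inside the window and nearer than the crq copy. Copies farther out lay at 191.5 bp for crq and 237.5 bp for the lwr site.

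**Figure D4:**
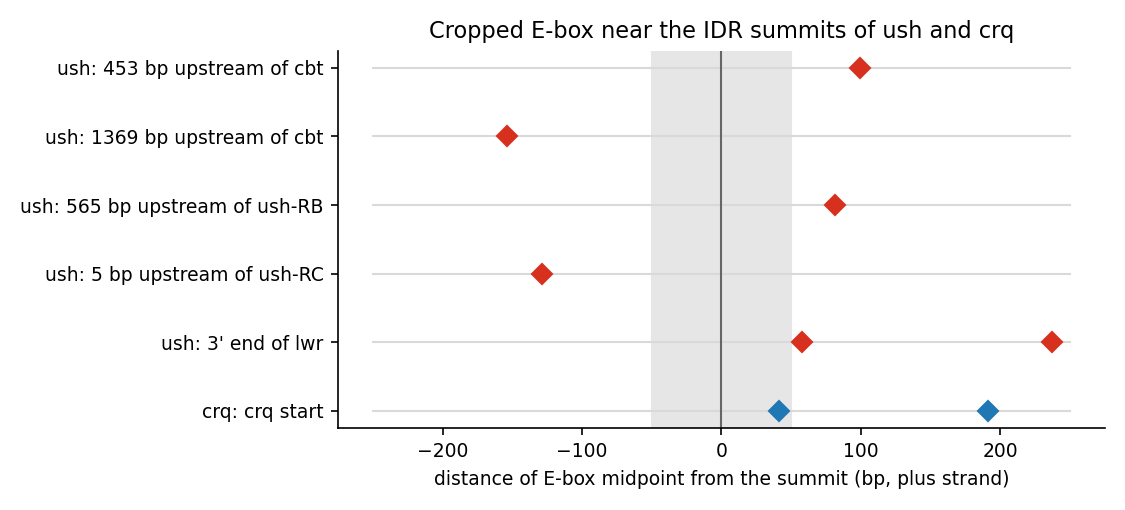
Distance in bp, along the plus strand, from each IDR summit (vertical line) to the midpoint of each CAGCTG E-box within 250 bp, for the 5 ush summits (red) and the crq summit (blue); the grey band covers 50 bp on each side. Only a crq copy, at 41.5 bp, lies in the band, and the nearest ush copies lie at 57.5 to 153.5 bp.

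None of the 6 windows of 50 bp on each side held any of the other 9 E-boxes of the form CANNTG, which 37.9% of IDR peaks had. A GATA-factor hexamer (the letters AGATAA, also with a last base G, as AGATAG, and the same pair with T as the first base, TGATAA as well as TGATAG, on either strand) was likewise found at 0 of the 6 summits, beside 18.4% of the IDR peaks and 18.4% of the other pooled candidates. The AGATAG in the stretch printed for the lwr site reaches past that window. Of the 31 weaker candidates of ush, 3 had CAGCTG and 8 had a GATA hexamer within 50 bp, beside 4.59% and 18.4% of all pooled candidates outside the IDR set. Among the 3 was the candidate at 540898, which shares its replicate peaks with the IDR summit at 540698.

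The 7 genes with no IDR summit had 21 pooled candidates among them, with signals of 18.8 to 31.8 and a median of 22.1, close to the median of 23.2 of all candidates outside the IDR set. Of the 21, 3 were present in both replicates, beside 28.7% of all pooled candidates outside the IDR set. The rest were 6 in replicate 1 only, 9 in replicate 3 only and 3 in neither. Of all 21, 4 lay within 1000 bp of a start of their gene. Within 50 bp of the summit 0 of the 21 had CAGCTG, beside 4.59% of the candidates outside the IDR set, and 6 had a GATA hexamer, beside 18.4%. Counts this small say nothing particular about these genes. Of all 9 genes, 5 had a pooled candidate within 1000 bp of a TSS and 8 had one in the extended body, beside 50.7% and 68.2% of protein-coding genes. Within 500 bp of a TSS the 5 genes became 3, and the share of all genes at that distance is not given here. In replicate 1 alone 4 of the 9 had a candidate near a TSS, beside 52.2% of genes, and in replicate 3 alone 8 of the 9, beside 54.8%.

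**Figure D5:**
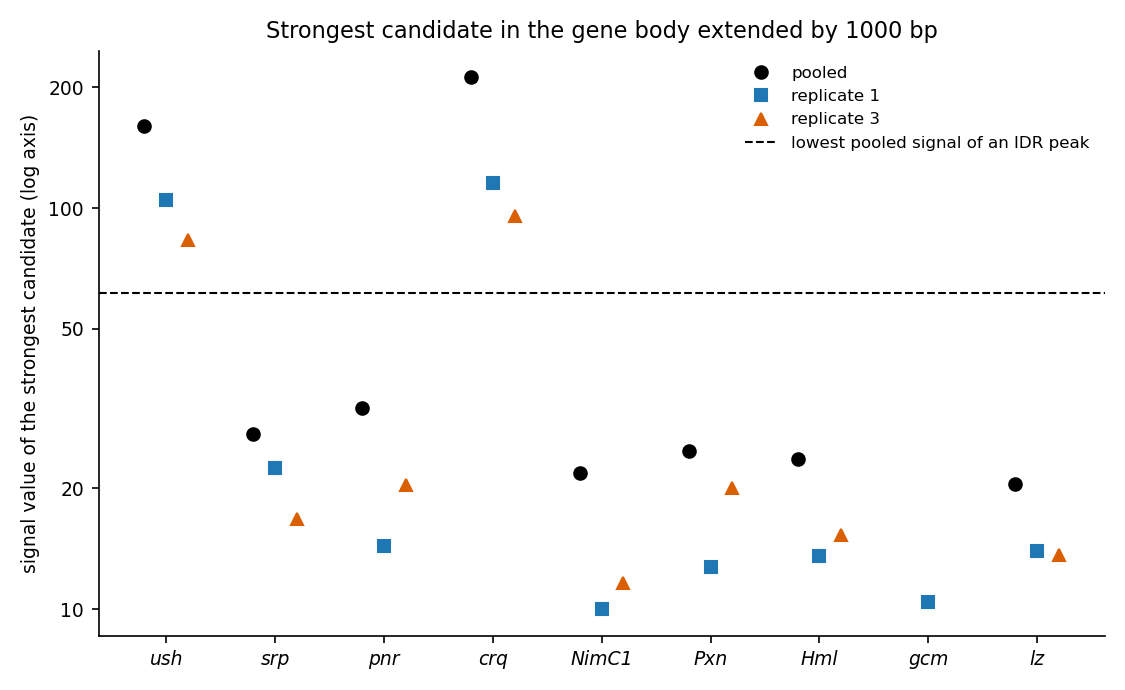
Signal of the strongest candidate (log axis) in the gene body extended by 1000 bp for each of the 9 genes in the pooled list (black circles), replicate 1 (blue squares) and replicate 3 (orange triangles); the dashed line is the lowest pooled signal of an IDR peak, 61.3. The pooled values of ush and crq stand above the line, those of the other genes are 31.8 or lower, and gcm has a single candidate, in replicate 1.

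The GATA factor genes lie near each other on 3R. The gene srp (FBgn0003507, chr3R:15986152-16004085, plus strand), required for embryonic hemocytes and fat body, had 4 pooled candidates of 21.3 to 27.3, none of them in both replicates. The strongest, at 16004311, had 27.3 pooled and 22.5 in replicate 1, with no candidate in replicate 3, and was nearer to the start of GATAe than to one of srp. The candidate at 15987186, with 25.2, was just outside the window at 1034 bp from a start of srp, and its counterpart in replicate 1 was just inside at 987 bp with 14.4. In replicate 3 the candidate nearest to a start was another, 272 bp upstream with 16.8, so the replicates did not share a site near a start of srp.

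The gene pnr (FBgn0003117, chr3R:16026079-16041796, plus strand), which patterns the dorsal ectoderm and the heart, had 3 pooled candidates of 18.8 to 31.8, all in introns and none within 1000 bp of a start. The one at 16037741 was the strongest of the 7 genes, with 31.8 pooled, 13.8 in replicate 1 and 11.9 in replicate 3. It was the only candidate of the GATA pair found in both replicates, and the medians of the replicate lists were 12.5 and 14.5. The nearest IDR summit, at the gene CG4287, was 22.3 kb from a start of srp and 62.2 kb from one of pnr.

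Of the lineage factor genes, gcm (FBgn0014179, chr2L:9579498-9581745, minus strand), which directs plasmatocyte and glial fates, had no pooled candidate at all. Replicate 1 listed 1 candidate, 794 bp upstream with 10.4, and replicate 3 none. The gene lz (FBgn0002576, chrX:9284649-9303636, plus strand), needed for crystal cells, had 3 pooled candidates of 18.8 to 20.5, near the floor of the pooled list, and none in both replicates. Near its start only replicate 3 had a candidate, 196 bp downstream with 12.0. The nearest IDR summits were 11.6 kb from the start of gcm and 34.3 kb from that of lz.

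The other plasmatocyte genes differed from crq at their starts. NimC1 (FBgn0259896, chr2L:13973158-13976769, minus strand), which encodes a receptor for bacteria, had a pooled candidate of 21.8 only 3 bp from a start, which neither replicate list held. Hml (FBgn0029167, chr3L:13846054-13860001, plus strand), the gene of the clotting protein Hemolectin, had 6 pooled candidates of 19.6 to 23.6, with 0 in both replicates. Those at 699 bp and, just inside the window, 942 bp downstream of its start had 22.1 each, with 11.6 and 13.1 in replicate 3 and no candidate in replicate 1. The nearest IDR summit was 47.3 kb from a start of NimC1 and 83.1 kb from that of Hml.

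Pxn (FBgn0011828, chr3L:2601455-2630064, minus strand), the gene of the matrix enzyme Peroxidasin, had 4 pooled candidates of 20.3 to 24.8. The one within 1000 bp of a start, 700 bp downstream, had 21.8 pooled and 11.3 in replicate 3, and replicate 1 had none. Candidates at 2 sites were in both replicates, and 1 of these lay in the neighbour CG16986. An IDR summit stood 1476 bp upstream of Pxn, outside the window, with 223.7 pooled, 128.5 in replicate 1 and 97.6 in replicate 3. It was 175 bp upstream of MEP-1, a zinc finger gene whose product is a partner of Mi-2, and had CAGCTG within 50 bp. It was stronger than the summit of crq in each list, and its nearest start was not that of Pxn.

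Further genes of the same processes, complexes and cell types were taken from 7 lists. With the 9 genes they make 81 distinct genes, of which 4 (4.94%) had an IDR summit near a TSS, again within 1000 bp, and 44 (54.3%) a pooled candidate there, beside 11.1% and 50.7% of all protein-coding genes. The lists were drawn up with results of these data known and overlap, so none is a test. The 4 genes were ush, crq, Mi-2 and Bro, and at the last 2 the summit was nearer to the start of another gene.

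Among the 5 GATA factor genes 0 had an IDR summit near a TSS or in the body, beside 11.1% and 13.6% of all protein-coding genes, and 3 had a pooled candidate near a TSS, beside 50.7%. These were grn with 29.0, GATAe, a factor of the gut, with 28.8, and GATAd with 19.0. Each was found in 1 replicate or in neither. The median number of pooled candidates in the extended body was 3, beside 1 over all protein-coding genes. These medians are not matched for length: the 5 genes are 5452 to 34077 bp long, and the median over all protein-coding genes is 2164.5 bp.

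In the NuRD complex, with which Ush is known to interact, 1 of 6 genes had an IDR summit near a TSS and 2 had one in the body, beside 11.1% and 13.6% of all protein-coding genes, and the median number of pooled candidates was 3.5. The Mi-2 summits had pooled signals of 64.8, 67.0, 115.7 and 122.4. The third, with 72.4 in replicate 1 and 42.2 in replicate 3, was 658 bp from a Mi-2 start and 147 bp upstream of Su(Tpl). Of the 4, 0 had CAGCTG within 50 bp, as at ush. A summit of 67.2 at simj, the gene of the p66 subunit, stood just outside the window at 1069 bp, and its strongest candidate within it had 19.6. MTA1-like had a candidate of 41.5 at 33 bp upstream of its start, with 13.4 in replicate 1, 24.7 in replicate 3 and CAGCTG within 50 bp.

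The U-shaped group, named for the failure of germ band retraction that its mutants share, has 4 genes. Of these ush alone had IDR summits, near a TSS and in the body, beside 11.1% and 13.6% of all protein-coding genes. The gene ush was chosen with its summits known, so this count says nothing about the group. The pooled candidates near a start had 33.3 at tup, the gene of a LIM-homeodomain factor, and 23.5 at peb, which encodes the zinc finger factor Hindsight. The median number of pooled candidates in the body was 7.5. Among 15 partners of Pannier and dorsal genes 0 had an IDR summit near a TSS, beside 11.1% of all protein-coding genes, and 5, beside 50.7%, had a pooled candidate near a TSS, with a median of 1 candidate in the body. The strongest had 31.0 at mid, a T-box gene, 28.3 at the heart gene tin and 26.6 at CtBP, the gene of a corepressor, and each was in only 1 replicate.

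Of 26 genes for hemocyte specification and signalling, 2 had an IDR summit near a TSS and 18 a pooled candidate there, beside 11.1% and 50.7% of all protein-coding genes, with a median of 4 candidates in the body. Beside ush this was Bro, the gene of a partner of Runx factors, whose summit had 201.5 pooled, 94.7 in replicate 1 and 112.0 in replicate 3, and which lay 359 bp upstream of Bro and 46 bp upstream of CG17249. The strongest candidates outside the IDR set had 38.5 at the ETS gene pnt, 36.9 at the JAK kinase gene hop, nearer to the start of Tim8, and 32.6 at Stat92E, the gene of the STAT factor downstream of hop. That of pnt was in replicate 3 only, with 33.3, and those of hop and Stat92E were in both replicates.

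Of 20 plasmatocyte genes crq alone had an IDR summit near a TSS, beside 11.1% of all protein-coding genes, 12 had a pooled candidate there, beside 50.7%, and the median number in the body was 1. The 3 highest after crq were the laminin genes. LanB2 had 55.1 pooled, 28.8 in replicate 1 and 26.8 in replicate 3, with CAGCTG within 50 bp. LanA had 43.5, 22.0 and 21.6 in the same lists, and LanB1 had 36.3, 19.1 and 17.2. All 3 were present in both replicates, above the highest pooled value of the 7 genes without an IDR summit. Among 10 crystal cell and lamellocyte genes 0 had an IDR summit near a TSS and 2 had a pooled candidate there, beside the same shares of all genes, 25.8 at the lamellocyte surface gene atilla and 23.5 at peb, with a median of 1 in the body.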

How the data were processed

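Chromatin immunoprecipitation of crp-GFP from whole embryos was described by 4 peak lists in the dm6 build, made by the authors: candidates per replicate, described in the notes deposited with the files as peaks and background for IDR, candidates from the pooled replicates, and the optimal IDR list. The authors deposited a signal value per peak, used only to describe and rank peaks. Which aligner and peak caller they used, how the control was scaled and which IDR threshold was set is not given in the sources used here. A control experiment and 4 dm3 lists were not analysed here. The pooled and IDR lists come from the same 2 libraries as the replicate lists.

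Summits were placed from the deposited offsets, the authors' distance of a summit from its peak's first base,. A replicate held a site when one of its candidate peaks covered the pooled summit. Distances were taken to TSSs of protein-coding genes (Ensembl release 115), and motifs were read from the reference genome of the same assembly. Besides the 9, genes were named that were on a list and had an IDR summit near a TSS or in the body, were among the 3 others per list with the strongest candidate near a TSS, or had at least 4 IDR summits. Members and lists were chosen with earlier results of these data known. No test was run: there is 1 group, and the genes were selected on these values. Alternatives were other windows, extensions, TSS choices, signal thresholds and motif distances, and each replicate's own strongest candidates. Counting was tested on planted summits and motifs. Python 3.11.15, NumPy 2.4.6, pandas 2.3.3 and matplotlib 3.10.9 were used.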

Additional observations from a re-analysis of the deposited data

How the results depend on the processing

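Counts rather than tests were recomputed, and no paired analysis was possible because there is a single group and no test. Of the 9 genes, 2 had an IDR summit near a TSS; this fell to 1, crq, when only the outermost TSS of each gene was used, and was 2 at 500 bp, with the stronger IDR peaks and without either replicate (2 to 2), and 3, with Pxn added, at 2000 bp. The 5 ush summits became 3 with the stronger 561 IDR peaks, and 4 without the extension, where the lwr site is lost. By 2 alternatives chosen after seeing the data they were 2: summits whose nearest TSS is that of ush, and summits within 1000 bp of a ush TSS. With the IDR list replaced by the 1122 strongest candidates of either replicate alone, the count ranged from 4 to 5; the summit at the start of ush-RC was the one lost without replicate 3. Genes with a pooled candidate near a TSS numbered 5, fell to 3 at 500 bp and were 7 at 2000 bp. Shares of all protein-coding genes at 500 and 2000 bp are not given here, so the counts at these windows have nothing to stand beside. CAGCTG was at 0 of 5 ush summits within 50 and 25 bp and at 2 within 100 bp. All 5 ush summits were in both replicates also when a replicate summit had to lie within 100 bp. At 480141 the replicate 1 summit lay exactly at this limit, so a smaller distance would lose it. Depth is unknown, so an unlisted site cannot be told from one below detection.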
